A study of Mus musculus with 66 samples.

Results

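The 10 genes described here encode the structural core of the enterocyte microvillus: Vil1, Ezr, Espn, Eps8, Pls1, Myo1a, Myo7b, Cdhr2, Cdhr5 and Ush1c. They were chosen by gene symbol for their known roles, and every transcript of them in the expression table was taken, which gave 13 transcripts among the 9481 transcripts of 8978 gene symbols. Espn had 3 transcripts, Ush1c had 2 and the other 8 genes had 1 each. All organoids were mouse small intestinal organoids carrying 1 Lgr5 allele with a GFP and diphtheria toxin receptor cassette, so all groups shared this genotype. ENR organoids were kept in medium with EGF, Noggin and R-Spondin-1, CV organoids received 3 µM CHIR99021 and 1 mM valproic acid on top of ENR for 5 days to enrich stem cells, and EN organoids lost R-Spondin-1 for 2.5 days to differentiate mainly into enterocytes. The time in ENR medium was not given in the sources used here. Each culture had 4 RNA-seq and 4 ATAC-seq libraries, 3 libraries in the table for each of H3K27ac, H3K4me3 and H3K27me3, and 1 Hnf4g library. The labels do not say that replicates were separate cultures, so the p-values below measure only the spread between these libraries, and each culture is a mixture of cell types.

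The apical face of an enterocyte carries a brush border of densely packed microvilli, each built around a bundle of parallel actin filaments. Villin, fimbrin and espin bundle the filaments, Eps8 sits at the growing tips, and ezrin and myosin-1a tie the bundle to the membrane. Neighbouring microvilli are held together at their tips by the protocadherins Cdhr2 and Cdhr5, which bind each other and are anchored inside the cell by Ush1c (harmonin) and the motor Myo7b.

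RNA libraries held 5630950 to 8859740 expected counts after rounding. Summed TPM of 9 enterocyte markers (such as Alpi, Fabp1 and Sis) was 77423 to 84232 in EN, 14879 to 16817 in ENR and 21248 to 22511 in CV, and all 9 were higher in EN than in CV and than in ENR. Summed TPM of 7 stem cell markers (such as Lgr5 and Olfm4) was 17.4 to 20.0 in EN, 923 to 1008 in ENR and 293 to 330 in CV, and all 7 were lower in EN. The order of CV and ENR in these sums was not shared by every marker. Of the 9 enterocyte markers, 3 were higher and 5 lower in CV than in ENR (median log2 fold change -0.31). Of the 7 stem cell markers, 2 were higher and 4 lower in CV (median -0.22). Of all tested transcripts, 30.2% were higher and 29.8% lower in CV than in ENR. Markers of other cell types moved as well. Goblet markers were at 6201 to 7417 TPM in EN, 2807 to 3020 in ENR and 1671 to 1792 in CV. Enteroendocrine markers were at 1602 to 1872, 584 to 600 and 38.5 to 62.1. In each of these 2 sets, all 5 measured markers were higher in EN than in CV and than in ENR. Paneth markers were at 5972 to 6445 TPM in EN, 22739 to 24795 in ENR and 8256 to 9244 in CV, and proliferation markers at 164 to 179, 872 to 914 and 783 to 812. Markers of non-epithelial cells summed to at most 20.7 TPM. Vil1 is itself among the enterocyte markers the study used, so its rise is not independent evidence of the culture's identity. In such bulk samples fewer cells of a type and less RNA per cell cannot be told apart, and the part of cell composition in the results below was not tested.

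As a group, the 10 genes were most abundant in EN and least abundant in ENR. Their summed TPM was 3176 ± 154 in EN (SD, n = 4, 2957 to 3311), 1723 ± 32.5 in CV (1693 to 1769) and 1358 ± 31.2 in ENR (1340 to 1404), and the ranges did not overlap. This sum was between 0.304% and 0.338% of all TPM in EN, 0.173% to 0.180% in CV and 0.136% to 0.143% in ENR. Between EN and CV, 12 of the 13 transcripts were higher in EN and none was lower, where 35.2% of all 9288 tested transcripts were called higher and 41.2% lower (edgeR quasi-likelihood test, Benjamini-Hochberg adjusted p under 0.01). Between EN and ENR, 11 of 13 were higher and none lower, against 35.5% and 37.2% of all transcripts. Between CV and ENR, 6 were higher and 3 lower in CV, against 30.2% and 29.8% of all transcripts. On log2(TPM + 1) these calls were 8 higher and 0 lower, against 3713 and 1895 of all transcripts. The 3 comparisons share libraries. The median log2 fold change over the 13 transcripts was 1.20 for EN over CV (all transcripts -0.08), 1.38 for EN over ENR (all transcripts -0.01) and 0.39 for CV over ENR (all transcripts -0.01). With counts summed per gene, all 10 genes were higher in EN than in CV (36.9% of 8822 genes) and than in ENR (37.7%), and 8 of 10 differed between CV and ENR, 6 of them higher in CV (33.1% of genes) and 2 lower (33%), Myo1a and Ush1c. A stricter test against a 2-fold change called 7 of 13 transcripts higher in EN than in CV (11.9% of all) and 7 higher in EN than in ENR (9.5%).

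**Figure D1:**
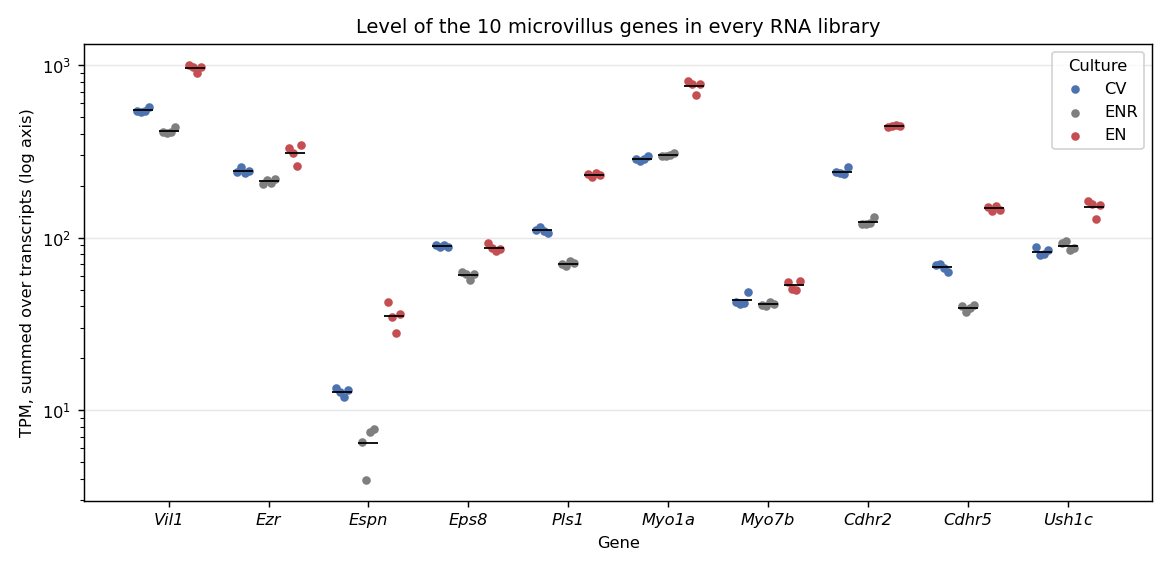
Level of the 10 microvillus genes in TPM (log axis) in each of the 4 libraries of CV, ENR and EN, with points for libraries and bars for culture means. Vil1 was the most abundant gene in every culture, up to a mean of 961 TPM in EN, and Espn the least.

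The order of the genes by TPM, the length-normalised level, was similar across the cultures at its ends. Vil1 led in CV (547 ± 16 TPM), ENR (414 ± 14) and EN (961 ± 45.7), followed in each by Myo1a (285, 301 and 756 TPM), and Espn came last. Cdhr2 rose past Ezr in EN, with 444 ± 4.08 against 310 ± 36.2 TPM, whereas their ranges overlapped in CV and Ezr was above Cdhr2 in ENR (211 against 123 TPM). Other neighbours whose ranges overlapped were Myo7b and Cdhr5 in ENR and Ush1c and Cdhr5 in EN.

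Among the bundlers, Vil1 encodes villin, which bundles actin filaments at low calcium and severs them at high calcium. Its CPM, the count relative to library size after TMM normalisation, was 1011, 1004, 1017 and 1053 in CV, 856, 838, 849 and 903 in ENR, and 2284, 2290, 2102 and 2265 in EN. The cultures did not overlap, with EN highest and ENR lowest. The log2 fold change was 1.13 (SE 0.0365, adjusted p = 1.78e-13) for EN over CV, 1.38 for EN over ENR (SE 0.0368, adjusted p = 2.47e-14) and 0.25 for CV over ENR (SE 0.0364, adjusted p = 2.47e-05). Pls1 encodes plastin-1, the fimbrin of the intestinal brush border. Its CPM was 247, 257, 245 and 234 in CV, 175, 171, 183 and 176 in ENR, and 638, 627, 668 and 646 in EN, again without overlap and with EN highest. Its log2 fold change was larger than that of Vil1 in each comparison, 1.39 (SE 0.0366, adjusted p = 1.65e-14), 1.87 (SE 0.0377, adjusted p = 1.26e-15) and 0.48 (SE 0.0380, adjusted p = 2.76e-08). The TPM ratio of Vil1 to Pls1 was therefore lowest in EN (4.16 ± 0.267) and highest in ENR (5.86 ± 0.234).

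Espn encodes espin, a bundler made in longer and shorter isoforms. The transcript NM_019585.3 is the shortest of the 3 measured, the effective lengths of XM_006539059.2 and XM_006539063.2 being 3.75 and 3.60 times as large. Its CPM was 5.79, 5.74, 5.17 and 5.06 in CV, 3.84, 1.80, 4.71 and 4.28 in ENR, and 27.9, 23.1, 17.5 and 22.9 in EN. EN lay above both other cultures in every library, with log2 fold changes of 2.07 over CV (SE 0.195, adjusted p = 8.27e-08) and 2.63 over ENR (SE 0.207, adjusted p = 1.12e-08), while CV and ENR did not differ at the threshold (adjusted p = 0.0428). The longer XM_006539063.2 had 3.36 ± 0.742 CPM in CV, 1.11 ± 0.664 in ENR and 10.2 ± 1.01 in EN, and all 3 cultures differed, with EN over CV at 1.59 (SE 0.277, adjusted p = 7.20e-05). The longest, XM_006539059.2, had its highest expected counts in CV. They were 32.5, 29.3, 33.2 and 48.2 in CV, 15.3, 8.92, 0.105 and 11.7 in ENR, and 8.50, 0, 18.8 and 20.9 in EN. All CV libraries lay above all EN libraries, but the log2 fold change of -1.26 (SE 0.595, adjusted p = 0.0622) did not pass, and this was the only member transcript not called between EN and CV. Summed over transcripts, Espn was 1.38 (SE 0.102, adjusted p = 5.27e-14) higher on the log2 scale in EN than in CV.

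The short transcript made up 71.6% ± 4.55 of the summed Espn TPM in CV, 83.0% ± 11.6 in ENR and 86.8% ± 2.69 in EN. XM_006539059.2 made up 16.2% ± 2.76, 8.64% ± 6.44 and 2.07% ± 1.94. The differences between EN and CV, 15.2 and -14.1 percentage points, had the smallest p that 4 against 4 libraries allow (exact two-sided permutation test, p = 0.0286), which became 0.143 after adjustment over 15 tests of shares. Reads from sequence the transcripts share were divided among them by estimate, so the split between them is less certain than their sum.

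**Figure D2:**
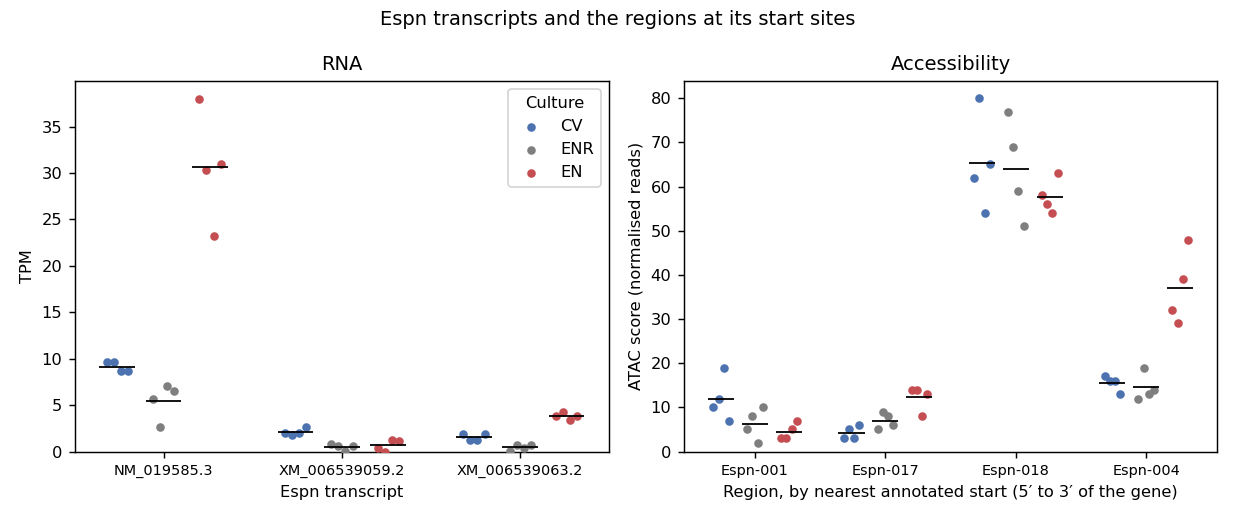
Left, TPM of the 3 Espn transcripts in each library of CV, ENR and EN. Right, ATAC-seq score of each library at the regions of 4 annotated Espn start sites, named by transcript; the scores at Espn-004 and Espn-017 had their highest mean in EN and those at Espn-001 their lowest.

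Eps8 encodes a protein that caps and bundles actin filaments at microvillus tips. Its CPM was 229, 225, 232 and 222 in CV, 179, 175, 161 and 175 in ENR, and 286.5, 279, 266 and 270.4 in EN. The ranges did not overlap, but the rise over CV was the smallest of the 10 genes, 0.28 on the log2 scale (SE 0.0387, adjusted p = 6.34e-06), beside 0.68 over ENR (SE 0.0395, adjusted p = 2.83e-10). Its direction from CV to EN turned with the scaling, to -0.04 on log2(TPM + 1) (adjusted p = 0.438) and -0.13 with spike-in scaling (adjusted p = 0.499), where the medians of all transcripts lay at -0.34 and -0.49. Its TPM was 89.3 ± 1.35 in CV, 60.9 ± 2.68 in ENR and 87.2 ± 3.97 in EN, so CV and EN stood together on that scale.

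Of the linkers, Myo1a encodes the motor that bridges the actin core to the membrane along the microvillus. Its CPM was 621, 613, 627 and 643.5 in CV, 726, 730.4, 733 and 757 in ENR, and 2149, 2131, 1860 and 2127 in EN. EN was highest, and here CV was lowest, below every ENR library. The log2 fold change was 1.72 for EN over CV (SE 0.0438, adjusted p = 1.11e-14), 1.49 for EN over ENR (SE 0.0435, adjusted p = 6.71e-14) and -0.23 for CV over ENR (SE 0.0433, adjusted p = 0.000201). The last call was lost on log2(TPM + 1), where the difference was -0.08 (adjusted p = 0.165), and with spike-in scaling (-0.33, adjusted p = 0.114). The TPM ratio of Myo1a to Vil1 rose from 0.521 ± 0.00238 in CV to 0.727 ± 0.0128 in ENR and 0.785 ± 0.0225 in EN. Ezr encodes ezrin, which links actin filaments to membrane proteins. Its CPM was 440.5, 474, 439 and 438 in CV, 421, 439, 423 and 448 in ENR, and 737, 716, 599 and 783 in EN. CV and ENR overlapped (log2 fold change 0.05, SE 0.0636, adjusted p = 0.509), and EN was above both, by 0.66 over CV (SE 0.0633, adjusted p = 9.63e-08) and 0.71 over ENR (SE 0.0635, adjusted p = 4.92e-08). With spike-in scaling the rise over CV was 0.25 and did not pass (adjusted p = 0.189).

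The protocadherins of the intermicrovillar links had the largest rise from ENR among the 8 genes with 1 transcript. Cdhr2 CPM was 601, 597, 588 and 638 in CV, 338, 334, 339 and 369 in ENR, and 1346, 1399, 1418 and 1397 in EN. Every culture was separate, and the CV level stood 0.81 above ENR on the log2 scale (SE 0.0392, adjusted p = 1.13e-10), the largest such difference among the 8 genes with 1 transcript. The log2 fold change for EN was 1.20 over CV (SE 0.0384, adjusted p = 1.65e-13) and 2.01 over ENR (SE 0.0398, adjusted p = 1.11e-15). Cdhr5, the partner of Cdhr2 at microvillus tips, had a CPM of 86.4, 88.2, 83.2 and 77.6 in CV, 55.9, 51.2, 54.1 and 56.8 in ENR, and 230.4, 224, 239 and 226 in EN. It followed the same order of cultures, with log2 fold changes of 1.46 for EN over CV (SE 0.0457, adjusted p = 1.27e-13), 2.07 for EN over ENR (SE 0.0483, adjusted p = 5.74e-15) and 0.62 for CV over ENR (SE 0.0505, adjusted p = 4.08e-08). The TPM ratio of Cdhr2 to Cdhr5 was 3.60 ± 0.321 in CV, 3.14 ± 0.107 in ENR and 3.01 ± 0.1 in EN, and every CV ratio lay above every EN ratio.

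The cytoplasmic anchors of these links, unlike the protocadherins, were not called higher in CV than in ENR. Ush1c encodes harmonin, a scaffold with PDZ domains, and its main transcript NM_023649.2 had a CPM of 103, 93.6, 95.6 and 97.0 in CV, 120.2, 120.4, 108 and 114 in ENR, and 232, 232, 185 and 225 in EN. CV was lowest and EN highest without overlap, with log2 fold changes of 1.17 for EN over CV (SE 0.0667, adjusted p = 1.89e-10), 0.92 for EN over ENR (SE 0.0662, adjusted p = 3.73e-09) and -0.25 for CV over ENR (SE 0.0686, adjusted p = 0.00471). The last call was lost without any 1 of 5 libraries (the second, the third or the fourth CV library, or the first or the second ENR library). It was also lost on log2(TPM + 1), and its TPM overlapped between CV (78.7 to 87.2) and ENR (82.1 to 91.4). The minor Ush1c transcript NM_001291182.1 had 1.14 ± 0.932 CPM in CV, 4.44 ± 2.45 in ENR and 6.65 ± 1.92 in EN, with EN over CV at 2.5 on the log2 scale (SE 0.515, adjusted p = 0.00036) and at 3.18 without the fourth CV library, and it overlapped between EN and ENR (adjusted p = 0.227). Myo7b encodes the motor that carries the link complex to the tip. Its CPM was 173, 168, 171.5 and 196 in CV, 184.5, 183, 194 and 188 in ENR, and 274, 256, 256 and 285 in EN. CV and ENR overlapped (log2 fold change -0.08, SE 0.0517, adjusted p = 0.191), and EN was 0.60 above CV (SE 0.0513, adjusted p = 2.76e-08) and 0.52 above ENR (SE 0.0513, adjusted p = 1.74e-07). With spike-in scaling the rise of Myo7b over CV was 0.18 and did not pass (adjusted p = 0.388). The TPM ratio of Cdhr2 to Myo7b was 2.99 ± 0.141 in ENR, 5.56 ± 0.205 in CV and 8.44 ± 0.554 in EN, without overlap between the cultures.

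**Figure D3:**
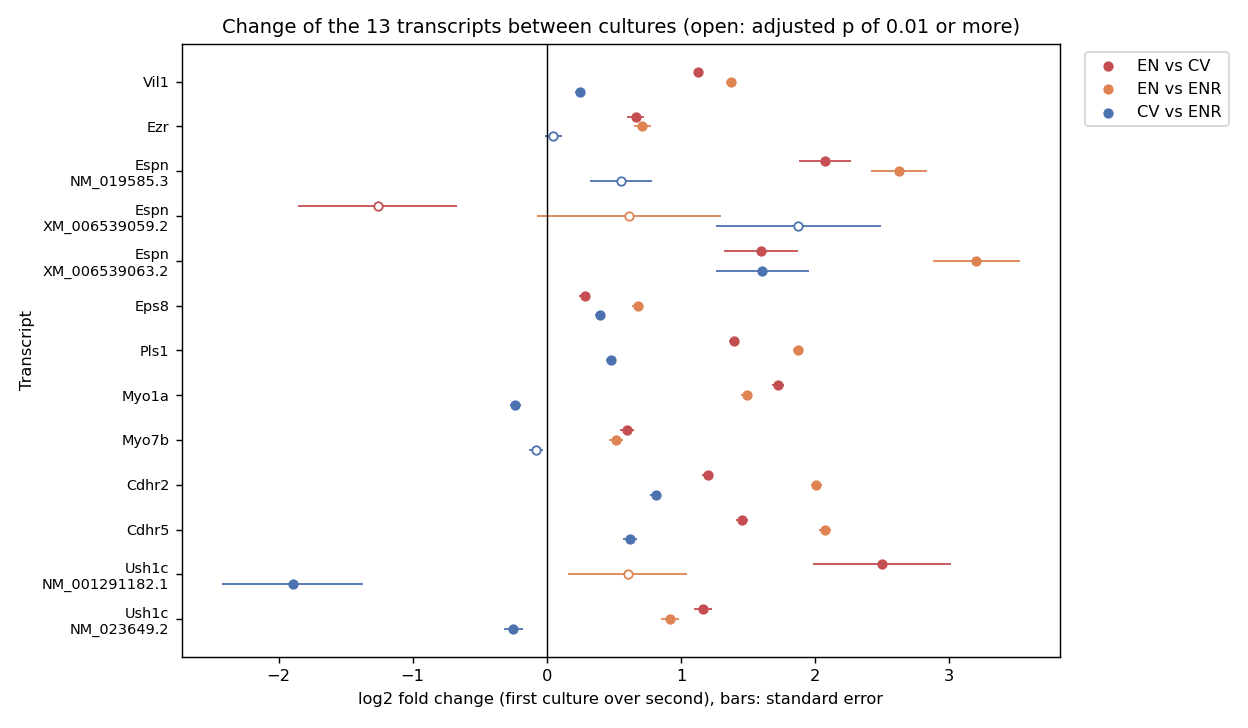
Log2 fold change with its standard error for the 13 member transcripts in EN over CV, EN over ENR and CV over ENR (edgeR, 4 libraries per culture), with open points for an adjusted p of 0.01 or more. All EN values but that of Espn XM_006539059.2 over CV (-1.26) lie above 0, and Myo1a, Myo7b (not called) and both Ush1c transcripts lie below 0 in CV over ENR.

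The scale on which libraries were compared moved all transcripts together. From CV to EN the median of all tested transcripts was -0.34 on log2(TPM + 1), -0.49 with spike-in scaling and 0.62 on log2(mRNA copies + 1), the copies being the authors' spike-in based estimate. On these scales 11, 9 and 12 member transcripts were called higher and 1, 1 and 0 lower (2263, 1473 and 4418 of all transcripts higher and 4976, 4292 and 1258 lower). Every member but Espn XM_006539059.2 was above that median on each scale, including Eps8, at 1.14 on the scale of copies. The medians over the 13 transcripts were 0.88, 0.77 and 2.10.

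**Figure D4:**
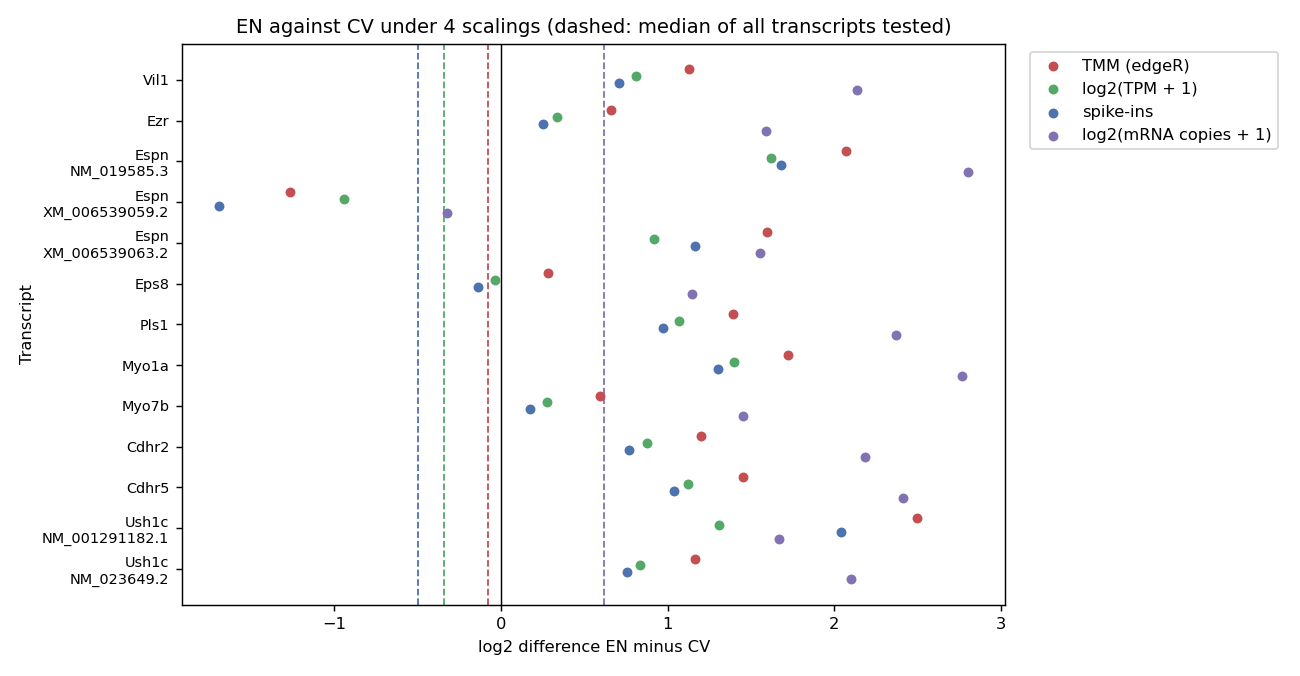
Difference between EN and CV for the 13 member transcripts on 4 scales, the log2 fold change after TMM, log2(TPM + 1), the log2 fold change with spike-in scaling and log2(mRNA copies + 1), with dashed lines for the median of all transcripts. The dashed lines lie at -0.08, -0.34, -0.49 and 0.62, and all members but Espn XM_006539059.2 lie above them.

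Other genes of the microvillus, from lists of known components, were counted against the 35.2% of all transcripts that were higher and the 41.2% that were lower in EN than in CV. Of 17 further actin genes, bundlers and regulators of filament growth, 8 were higher and 8 lower in EN than in CV (median log2 fold change 0.08). Actb, a major cytoplasmic actin, rose from 1497 ± 39.4 TPM in CV to 2228 ± 66.4 in EN (log2 fold change 0.89), while Actg1, the other one, fell from 1412 ± 52.2 to 701 ± 21.1 TPM (log2 fold change -0.69). On log2(mRNA copies + 1), where the median of all transcripts was 0.62, Actg1 differed by 0.15. Avil, a villin relative that also marks tuft cells, rose from 0.605 ± 0.149 to 12.6 ± 2.84 TPM (log2 fold change 4.68). The bundler Fscn1, which is typical of filopodia, had no count in any EN or ENR library and was at least 3.28-fold lower in EN than in CV, against a floor of 3 counts per library. Of 15 membrane linkers, 5 were higher and 8 lower (median -0.44, or -0.32 with genes at the floor set to their bound). The scaffold Slc9a3r1, which binds ezrin, rose from 112 ± 6.71 to 315 ± 20.8 TPM (log2 fold change 1.81), and Pdzk1, another scaffold of apical transporters, from 0.497 ± 0.150 to 55.6 ± 4.50 TPM (log2 fold change 7.09). The ezrin relative Rdx had no count in EN and was at least 8.05-fold lower than in CV, and the motor Myo6 fell by 0.32 on the log2 scale (0.50 on the scale of copies, below the median of all transcripts).

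Of the 11 further genes listed for intermicrovillar adhesion, 4 were measured and all 4 were higher in EN than in CV and than in ENR (medians 1.44 and 1.20). On log2(spike-in scaled counts + 1), 3 were above CV in EN and 1 was below. By the study's methods only transcripts with a quantified protein were indexed, so the unmeasured genes may differ from these 4. Calml4, a light chain of Myo7b, rose from 458 ± 26.3 TPM in CV to 1037 ± 46.4 in EN (log2 fold change 1.51), and Anks4b, the scaffold that joins Ush1c and Myo7b, from 84.6 ± 2.06 to 175 ± 11.7 TPM (log2 fold change 1.37). Clrn3, a tetraspan membrane protein, rose from 40.7 ± 1.81 to 99.0 ± 2.24 TPM (log2 fold change 1.60). Between CV and ENR, Myo7a, a relative of Myo7b named here after its values were seen, was higher in CV, with a log2 fold change of 0.70 (adjusted p = 5.53e-09), Calml4 was lower in CV, with a log2 fold change of -0.48 (adjusted p = 1.12e-06), and Anks4b had a log2 fold change of -0.07 (adjusted p = 0.261).

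Of 18 terminal web genes, which form the actin and myosin mesh under the microvilli, 7 were higher and 8 lower in EN than in CV (median -0.21, or -0.09 with genes at the floor set to their bound), both shares near those of all transcripts. The light chain Myl12b rose by 0.57 on the log2 scale, the actin crosslinker Actn1 fell from 48.2 ± 1.93 to 11.9 ± 2.10 TPM (log2 fold change -1.69), and the nonmuscle myosin heavy chain Myh10 fell from 4.88 ± 0.242 to 0.0683 ± 0.0165 TPM. Of 10 genes of apical trafficking, 7 were higher and 2 lower (median 0.68), among them the motor Myo5b, at 55.8 ± 0.845 TPM in CV and 111 ± 4.94 in EN (log2 fold change 1.31), and the small GTPase Rab8a (log2 fold change 1.08), while Rab11a fell by 0.57 on the log2 scale (0.22 on the scale of copies, below the median of all transcripts). All 12 enzymes and carriers of the brush border membrane were higher in EN than in CV (median 3.60) and than in ENR (median 2.72). The disaccharidase Sis rose from 336 ± 25.9 to 6107 ± 221 TPM (log2 fold change 4.50) and the glucose carrier Slc5a1 from 286 ± 9.51 to 1381 ± 39.1 TPM (log2 fold change 2.59). Against ENR, CV was lower for 9 of these 12 and higher for 1, where 29.8% of all transcripts were lower in CV and 30.2% higher. Of the 13 microvillus transcripts, 6 were higher in CV and 3 lower. Treh (trehalase) was at 2.34 ± 0.304 TPM in CV and 43.7 ± 5.16 in ENR, and Mme (neprilysin) at 8.98 ± 0.960 and 67.5 ± 6.84.

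Across the 12 libraries, the transcripts whose log2 CPM was most like the mean profile of the members included Sec14l2, Gramd3 and Slc9a3r1, with Pearson r of 0.997, 0.996 and 0.996 among 7990 candidates. Those most like Vil1 alone were Gucy2c (r = 0.999), Sec14l2, Slc9a3r1, Enpep and Gramd3 (r = 0.998 each). These values describe likeness over 3 cultures of 4 libraries that share each culture's composition.

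Accessibility and histone marks were read at the 21 regions of the peak table within 500 bases of an annotated start site of a member, which covered 9 of the 10 genes (none for Cdhr5). Scores are the authors' normalised values per region, and coordinates are on mm9 as the table gives them. In ATAC-seq 6 of 21 regions differed between the cultures (moderated F test in limma on log2 of score + 1, adjusted p under 0.01), near the 26.9% of all regions and the 23.6% of regions within 500 bases of any start site. In H3K27ac 5 of 21 differed, against 2.93% of all regions and 10.2% of those near a start site, and in all 5 EN was above CV. This count rested on the setting. It was 0 without the trend of spread on mean, with quantile normalization, with the replicate number as a block, and without the second, the third or the fourth EN library, and 1 to 3 without the fourth or the fifth CV library or the second or the fourth ENR library. The summed H3K27ac score of a library was also higher in EN (1622103 to 1760511) than in CV (1345873 to 1406651). Over all regions, the comparison of EN with CV called 2525 higher and 507 lower in H3K27ac. A rise in EN was therefore the common direction in the whole set as well. None of the 21 differed in H3K4me3 (2.35% of all regions, 1.93% near a start site), with 9 at an unadjusted p under 0.05 and 1 called after quantile normalization. At Espn-004 the H3K4me3 score was 10, 10 and 13 in CV, 2, 3 and 5 in ENR and 17, 13 and 24 in EN (adjusted p of the F test 0.0154). None differed in H3K27me3 (0.33% and 0.658%), with 2 at an unadjusted p under 0.05 and none called after quantile normalization.

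Sequences are printed for the promoter of Vil1, whose start had the lowest F test p in H3K27ac, for that of the internal Espn start Espn-004, and for the Pls1 region with the largest ATAC difference from CV to EN. They are given 5′ to 3′ on the gene's strand of mm9, with capitals for matches to TATAAA, to CAAAGTCC or CAAAGGTC (forms of the HNF4 motif), or to TTTATGG or TTTACGG (forms of the CDX motif), on either strand. The first is chr1:74455700-74455949, the 250 bases before the Vil1 start on the plus strand, the second chr4:151503035-151503284, the 250 bases before Espn-004 on the minus strand, inside the Espn gene and outside its annotated exons, and the third chr9:95746221-95746476, upstream of Pls1 on the minus strand.
Vil1-001: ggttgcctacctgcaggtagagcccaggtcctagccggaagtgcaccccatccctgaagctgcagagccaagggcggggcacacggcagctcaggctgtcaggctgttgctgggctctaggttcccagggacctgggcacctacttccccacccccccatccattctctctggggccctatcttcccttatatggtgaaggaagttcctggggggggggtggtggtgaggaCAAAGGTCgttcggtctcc
Espn-004: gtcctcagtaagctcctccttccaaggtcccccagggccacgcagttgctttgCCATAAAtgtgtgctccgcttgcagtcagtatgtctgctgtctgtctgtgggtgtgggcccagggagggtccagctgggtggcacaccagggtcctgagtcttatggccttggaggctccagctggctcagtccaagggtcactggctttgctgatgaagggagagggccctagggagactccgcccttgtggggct
Pls1 upstream region: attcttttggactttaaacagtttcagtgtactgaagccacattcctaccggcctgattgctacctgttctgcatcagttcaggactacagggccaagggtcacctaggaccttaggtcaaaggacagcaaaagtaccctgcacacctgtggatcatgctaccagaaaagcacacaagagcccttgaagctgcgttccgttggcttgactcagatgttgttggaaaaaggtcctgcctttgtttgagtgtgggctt
The Vil1 window holds CAAAGGTC with its first base 19 bases before the start, and the Espn-004 window holds TTTATGG on the opposite strand, at base 54 of the line. No searched motif matched the Pls1 region. Only exact matches were counted, so sites that differ from these letters were not looked for in any window. CAAAGGTC occurred in 1.17% of 32851 RefSeq promoters (GRCm38.p6, 250 bases before to 50 after the start) and in the central 300 bases of 3.75% of 94340 regions, and TTTATGG in 2.75% and 5.50%. Of 10 RefSeq promoters matched for 8 members, 1 held CAAAGGTC (Vil1), 1 held TTTATGG (Espn), and TATAAA, CAAAGTCC and TTTACGG, found in 13.6%, 1.42% and 0.965% of all promoters, were in none of these windows.

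At the Vil1 start (chr1:74455231-74456728) the ATAC score was 81, 100, 92 and 97 in CV, 176, 171, 124 and 143 in ENR, and 168, 165, 120 and 148 in EN. CV was lowest without overlap, and ENR and EN shared a range. The log2 difference was 0.69 between EN and CV (SE 0.130, adjusted p = 0.000447) and -0.03 between EN and ENR (adjusted p = 0.899). CV was below ENR in this score (-0.71, adjusted p = 0.00105), whereas in Vil1 RNA CV was above ENR. H3K27ac at the same region was 58, 74 and 124 in CV, 143, 79 and 122 in ENR, and 243, 224 and 292 in EN. EN was above both without overlap, with a log2 difference of 1.62 over CV (SE 0.253, adjusted p = 5.88e-05) and 1.17 over ENR (SE 0.253, adjusted p = 0.0102).

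At the Espn-004 start (chr4:151502952-151503313), whose sequence is printed above, the ATAC score was 17, 16, 16 and 13 in CV, 12, 19, 13 and 14 in ENR, and 32, 29, 39 and 48 in EN. EN lay above both without overlap, by 1.18 over CV (SE 0.199, adjusted p = 0.000138) and 1.29 over ENR (SE 0.199, adjusted p = 0.000135). A small region near Espn-017 was also higher in EN than in CV (log2 difference 1.35, SE 0.282, adjusted p = 0.00101). The upstream start Espn-001 (chr4:151526173-151526599) had 10, 12, 19 and 7 in CV, 5, 8, 2 and 10 in ENR, and 3, 3, 5 and 7 in EN, a log2 difference of -1.22 between EN and CV (SE 0.387) that did not pass the F test (adjusted p = 0.0382). The most accessible start region, shared by Espn-018 and other transcripts, stood at 54 to 80 in CV and 54 to 63 in EN and was not called (adjusted p = 0.617). The RefSeq transcripts of the expression table were not matched to these start sites, so no region can be assigned to 1 Espn transcript.

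The Pls1 region printed above had an ATAC score of 7, 7, 5 and 6 in CV, 14, 13, 15 and 18 in ENR, and 22, 30, 14 and 19 in EN. CV was below both others without overlap, by 1.58 on the log2 scale against EN (SE 0.231, adjusted p = 3.5e-05), while EN and ENR overlapped (0.44, adjusted p = 0.187). At the internal Pls1 start Pls1-002 (chr9:95715401-95715972) the H3K27ac score was 28, 18 and 14 in CV, 19, 19 and 28 in ENR, and 62, 76 and 65 in EN, a log2 difference of 1.76 between EN and CV (SE 0.406, adjusted p = 0.0051). Eps8 moved in both directions at its internal start Eps8-004. ATAC there fell from 113, 135, 110 and 150 in CV to 71, 93, 92 and 105 in EN (log2 difference -0.49, SE 0.129, adjusted p = 0.00593), and the neighbouring region had H3K27ac scores of 83, 55 and 61 in CV and 184, 130 and 181 in EN (log2 difference 1.31, SE 0.281, adjusted p = 0.00267). The upstream region of Eps8-001 and other transcripts had a mean H3K27ac score of 108 ± 38.3 in CV, 173 ± 21.6 in ENR and 90 ± 19 in EN. It was not called in H3K27ac (adjusted p of the F test 0.035) or in ATAC-seq (0.306). H3K27ac upstream of Myo1a (chr10:127140407-127141950) was 105, 69 and 79 in CV, 99, 76 and 73 in ENR, and 169, 180 and 195 in EN (log2 difference 1.11, SE 0.241, adjusted p = 0.00284), and that at the Myo7b start differed by 1.09 between EN and CV (SE 0.235, adjusted p = 0.00267). For Cdhr2, Ezr and Ush1c no region at a start passed the F test in any of the 4 measurements.

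**Figure D5:**
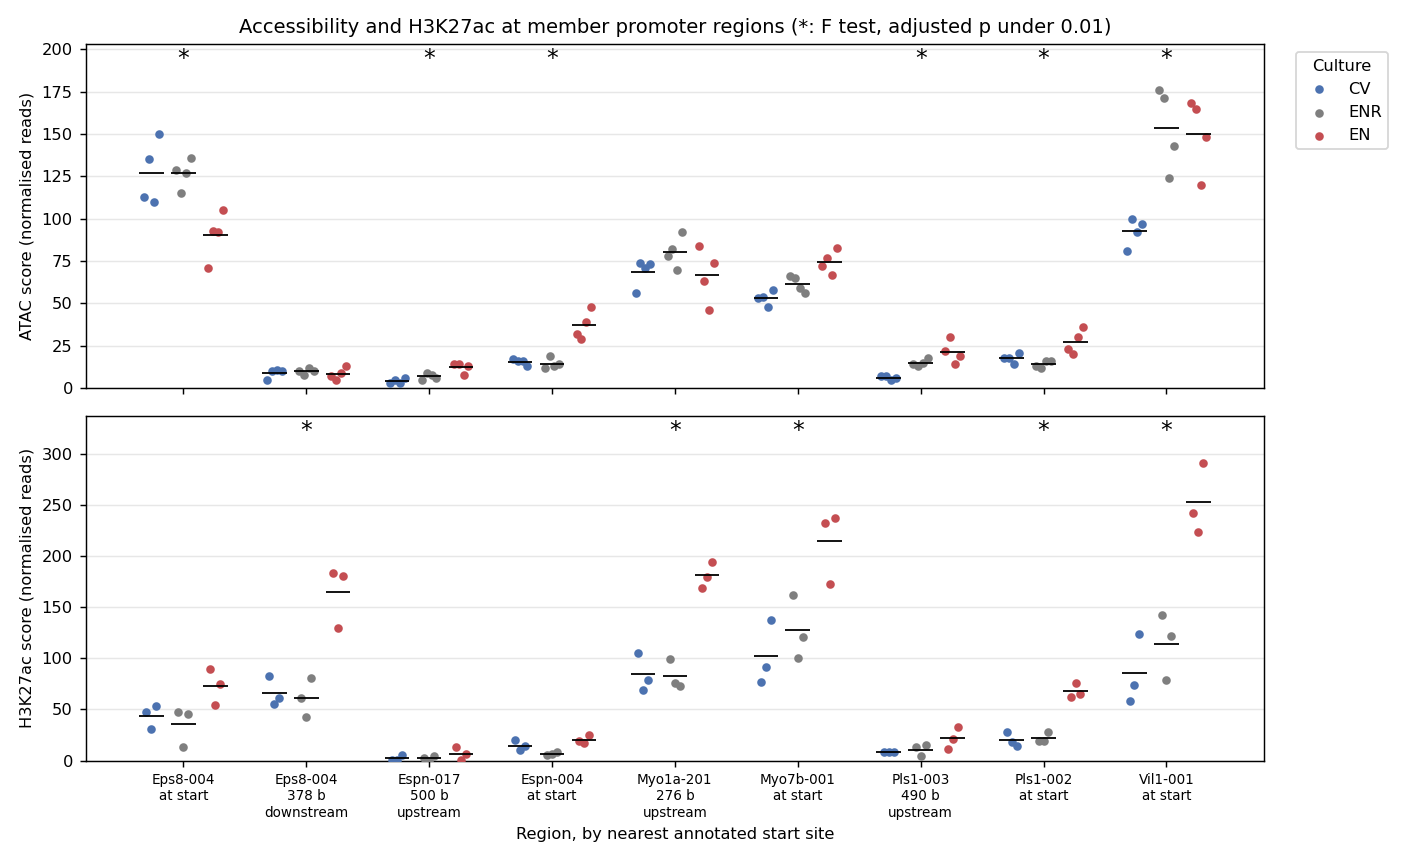
ATAC-seq score (4 libraries per culture) and H3K27ac score (3 libraries per culture) of each library at 9 start-site regions of the members, with an asterisk for an adjusted p under 0.01 in the F test. H3K27ac at Vil1 was 224 to 292 in EN and 58 to 124 in CV, and ATAC at Espn-004 was 29 to 48 in EN and 13 to 17 in CV.

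Within 10 kb of the 10 genes the table held 118 regions. Of these, 41 differed in ATAC-seq (26.9% of all regions), 28 of them with EN above CV, and 13 of the 41 lay at Eps8, which had 27 regions. Over all regions, the comparison of EN with CV called 13448 higher and 9571 lower in ATAC-seq, and 2525 higher and 507 lower in H3K27ac. H3K27ac differed at 8 of 118 (2.93% of all regions), all with EN above CV, but no H3K27ac region of the whole table was called with the replicate number as a block or without the trend. H3K4me3 differed at 1 of 116 (2.35% of all regions), a Pls1 region with a score of 1 in every EN library and 0 in the others. H3K27me3 differed at none of 118 at this threshold (0.33% of all regions). The lowest F test p in ATAC-seq was at chr6:137560493-137561072 inside Eps8, with scores of 42 to 48 in CV, 77 to 106 in ENR and 8 to 16 in EN (log2 difference -2.08 between EN and CV, adjusted p of the F test 7.75e-09). At chr17:6932465-6932970, beyond the end of Ezr, CV was low (7, 7, 14 and 12), whereas ENR had 59, 49, 41 and 44 and EN 54, 47, 49 and 63, a log2 difference of 2.35 between EN and CV. The lowest F test p in H3K27ac was at chr4:151534739-151535421, which lies 8259 bases upstream of Espn, over an exon of the neighbouring gene Hes2. Its score was 2, 13 and 20 in CV, 26, 14 and 13 in ENR, and 114, 81 and 115 in EN, a log2 difference of 3.43 between EN and CV (SE 0.524, adjusted p of the F test 0.000108).

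Hnf4g, a nuclear receptor of the enterocyte, was profiled in 1 library per culture, with 84340 reads in regions in CV, 352600 in ENR and 1816497 in EN, so these values have no replicate check and exact 95% Poisson intervals cover counting error only. Values are given as RPM, the reads relative to all reads in regions of the library. At the Vil1 start, where the printed sequence holds CAAAGGTC, 11, 88 and 519 reads gave 130 (65.1 to 233), 249.6 (200.2 to 307) and 286 (262 to 311) RPM, the EN value lying above 99.9% of all regions. The ENR and EN intervals overlapped, and so did those of CV and ENR. The Ush1c start had its highest value in ENR, with 24, 151 and 225 reads or 285 (182 to 423), 428 (363 to 502) and 124 (108 to 141) RPM. At Espn-004 there were 0, 6 and 140 reads, or 0 (0 to 43.7), 17.0 (6.24 to 37.0) and 77.1 (64.8 to 90.9) RPM, and at Espn-001 there were 0, 7 and 23 reads, the ENR count being 19.9 (7.98 to 40.9) and the EN count 12.7 (8.03 to 19.0) RPM. The region of the Pls1-001 start had 0, 1 and 90 reads, the EN count being 49.5 (39.8 to 60.9) RPM. The CV interval reached 43.7 RPM there and overlapped that of EN. Some other start regions were also highest in EN. In CV, ENR and EN, the region shared by Espn-018 had 0, 39.7 and 102 RPM, and the Ezr start 0, 53.9 and 74.3. The Eps8-001 region had 23.7, 45.4 and 65.5 RPM, and the Cdhr2 start 71.1, 45.4 and 78.2. Among these, the EN interval lay above both others only at the Espn-018 region. Further start regions were not highest in EN. In CV, ENR and EN, Pls1-002 had 2, 17 and 38 reads, or 23.7 (2.87 to 85.7), 48.2 (28.1 to 77.2) and 20.9 (14.8 to 28.7) RPM. A region near it (chr9:95716178-95716678) had 9, 23 and 63 reads, or 107 (48.8 to 203), 65.2 (41.35 to 97.9) and 34.7 (26.7 to 44.4) RPM. The region upstream of Myo1a had 11, 33 and 152 reads, or 130 (65.1 to 233), 93.6 (64.4 to 131) and 83.7 (70.9 to 98.1) RPM. The Myo7b start had 3, 23 and 59 reads, or 35.6 (7.34 to 104), 65.2 (41.35 to 97.9) and 32.5 (24.7 to 41.9) RPM. At each of these regions, the ENR and EN intervals overlapped. The CV and EN intervals overlapped too, except at the region near Pls1-002.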

How the data were processed

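RNA-seq, ATAC-seq and ChIPmentation libraries of mouse small intestinal organoids in CV, ENR and EN medium were grouped by the sample labels. The 10 members, the gene lists and the markers were chosen with earlier results of these data known. For RNA, total RNA was depleted of ribosomal RNA and sequenced with a kit that marks strand, and the authors deposited the expected count per transcript that kallisto estimated, beside TPM values and mRNA copies that they scaled with spike-ins. The submitters' processing notes name kallisto 0.43.0, DESeq2, BWA, Picard, MACS2 2.0 and the build mm9, and by the study's methods the index held only transcripts whose proteins mass spectrometry had quantified. For ATAC-seq and the histone marks the authors deposited a normalised score for every region in the merged peak set, given as whole numbers. For Hnf4g the authors deposited raw read counts per region. The 10 listed histone libraries that the region table does not hold and the Hnf4g knockout RNA were not used here.

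Expected counts were rounded, spike-ins set aside, and the 9288 transcripts counted above 0 in 4 or more libraries fitted with the quasi-likelihood test of edgeR 4.0.16 in R 4.3.3 (TMM, all 3 cultures in 1 fit, common dispersion 0.00475), with Benjamini-Hochberg adjustment over all of them and calls at an adjusted p under 0.01. Each kind of region score was compared in limma 3.58.1 where 3 or more libraries were above 0 (moderated F test with a trend of spread on mean, pseudocount 1), adjusted over all regions. Chi-square per transcript between replicates was 2.09 to 6.89, so no pair looked like 1 library. Alternatives were DESeq2 1.42.0, other scalings, filters, pseudocounts, thresholds, the replicate block and each library left out.

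Named besides the members are, in each list, the 2 genes with the highest mean TPM and the 2 with the largest called change from CV to EN, the 5 transcripts nearest in pattern (mean CPM of 10 or more, pseudocount 0.5), the member regions within 500 bases of a start site, and the 2 regions of lowest p per dataset within 10000 bases of a member. From these the text leaves out Rab11b, Myl6 and some start-site regions that were not called. Of the transcripts nearest in pattern, 2 are not reported here. The genome was NCBIM37 (mm9) with GENCODE M1, and 0 of 94469 regions lay beyond a chromosome end, while 129 lay on sequences it does not hold. Depth limits what is seen: 3 counts were taken as the floor.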

Additional observations from a re-analysis of the deposited data

Results flagged for a closer look

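Among 102 groups of 4 values (transcript CPM or region ATAC score of a member in 1 culture), 11 had 1 library that stood apart from the other 3 by more than Dixon's 95% criterion, where chance alone marks about 1 group in 20. In RNA, the third EN library was low for Vil1 (2102 CPM, the others 2265 to 2290), for Myo1a (1860 CPM, the others 2127 to 2149) and for Ush1c NM_023649.2 (185 CPM, the others 225 to 232). The second CV library was high for Ezr (474 CPM, the others 438 to 440.5), and the fourth ENR library was high for Cdhr2 (369 CPM, the others 334 to 339).

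In ATAC-seq, the first EN library had a score of 90 at the Cdhr2 start, where the others had 46 to 50. The third EN library had 8 at the Espn-017 region (the others 13 to 14), the first CV library 56 upstream of Myo1a (the others 71 to 74) and the first CV library 5 at the region beside Eps8-004 (the others 10 to 11). At regions with scores of a few units, the second ENR library had 3 at a Myo1a start region where the others had 2, and the second EN library had 0 at another where the others had 1. The causes were not tested.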

How the results depend on the processing

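The number of members called stayed at 12 for EN over CV, 11 for EN over ENR and within 1.5 times 9 for CV over ENR under DESeq2, no filter, log2(TPM + 1) and log2(TPM + 5), but on the log2(TPM) scales Eps8 lost its call in EN over CV (adjusted p = 0.438 on log2(TPM + 1), limma) and Espn XM_006539059.2 was called lower in EN (adjusted p = 0.00254). In CV over ENR the 6 higher and 3 lower calls became 8 and 0 on log2(TPM + 1) and 7 and 0 on log2(TPM + 5). They became 4 and 0 on log2(mRNA copies + 1), so no call of a lower level in CV held on these scales. Against a 2-fold change the counts were 7, 7 and 0 (3 of 13 at an unadjusted p under 0.05 in CV over ENR). With spike-in scaling 7 were called for EN over ENR and 4 for CV over ENR, and on log2(mRNA copies + 1) 4 for CV over ENR. Eps8 turned to -0.036 on log2(TPM + 1), -0.034 on log2(TPM + 5) and -0.13 with spike-in scaling in EN over CV. In CV over ENR, where neither was called, Ezr turned to -0.047 with spike-in scaling and Myo7b to 0.074, 0.068 and 0.13 on log2(TPM + 1), log2(TPM + 5) and log2(mRNA copies + 1). Leaving out 1 library kept 12 and 11 calls, and gave 7 to 10 for CV over ENR, where Ush1c NM_001291182.1 was lost without CV1, CV2, CV3, ENR2 or ENR3 and stood at -2.58 without CV4, NM_023649.2 as given in the report, and Espn XM_006539059.2 gained without EN2.

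At start-site regions, ATAC-seq gave 3 calls without the trend, 10 at an adjusted p under 0.05 and 4 to 6 with 1 library left out. H3K27ac gave 0 without the trend and 0 after quantile normalization (6 and 9 at an unadjusted p under 0.05), 11 at an adjusted p under 0.05, 3 within 250 bases and 0 to 5 with 1 library left out. H3K4me3 gave 1 after quantile normalization and 3 at an adjusted p under 0.05. The causes were not tested.

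Deviations from the culture mean in same-numbered libraries correlated with a mean r of 0.0132 in RNA (-0.0801 to 0.111) and 0.17 in ATAC-seq (0.0695 to 0.46, against -0.446 to 0.208 for other numbers). A library correlated best with its own number in 10 of 24 comparisons with another culture in RNA and 16 of 24 in ATAC-seq, and the labels name no shared batch. Under the replicate block, the RNA calls were 12, 11 and 8, Ush1c NM_001291182.1 being lost in CV over ENR (adjusted p = 0.0181), ATAC-seq gave 6, and H3K27ac 0 (13 at an unadjusted p under 0.05). Of the single member values under these alternatives, library omissions apart, 278 kept direction and side of the threshold, 62 lost the call, 9 gained one and 7 reversed. Depth limits the minor Espn and Ush1c transcripts, with 0 to 48.2 expected counts for Espn XM_006539059.2, and the CV library of Hnf4g.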

Other observations

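Espn, Cdhr2 and Cdhr5 were the genes whose summed levels stood furthest from ENR in both other cultures. Summed over transcripts, Espn was 2.53 higher on the log2 scale in EN than in ENR (SE 0.121) and 1.15 higher in CV than in ENR (SE 0.139), the latter with its 3 transcripts each above ENR in mean CPM. Among the members, r with Vil1 across the 12 libraries ran from -0.14 for Espn XM_006539059.2 and 0.49 for Ush1c NM_001291182.1 to 0.99 for Pls1. A pair of regions upstream of Espn had H3K27me3 scores of 24, 29 and 29 and of 20, 21 and 29 in ENR, against 3, 6 and 4 and 3, 7 and 2 in CV and 12, 10 and 11 and 11, 10 and 7 in EN. The 3 cultures did not overlap at the first of these, but neither region passed the F test (adjusted p = 0.112 and 0.152). By the study's methods, peaks were extended for this mark. These close neighbours therefore count some of the same reads and are not separate evidence. The Cdhr2 window held a second strong Hnf4g region upstream of the gene, with 6, 28 and 416 reads in CV, ENR and EN, or 71.1, 79.4 and 229 reads relative to all reads in regions (RPM), from 1 library each.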
